A study of Rattus norvegicus with 9 samples.

Results

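The Rab GTPases were followed in rat CD68+ cells through the early foreign body reaction (FBR). Members were all genes whose single annotated symbol is Rab followed by a number and at most 1 letter, which gave 56 genes among the 14218 genes with 1 symbol on the array. They were read by 97 probe sets. A total of 27 members had several probe sets, at most 5, and the one with the highest mean signal was used. Another 10 symbols that start with Rab and a number (the Rab11fip genes, Rab3gap1, Rab3gap2, Rab3il1, Rab3ip and Rab5if) name partners of Rab proteins and were not counted as members. Rab14 and Rab43 each lacked a readable value on 1 array.

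The study compared 3 conditions in male Wistar rats, with 3 arrays each and 9 in all. FBR CD68+ cells were isolated from tissue deposited within 3 days on acellular photo-oxidized bovine pericardium in the peritoneal cavity. In vitro activated CD68+ cells were blood cells kept for 3 days in serum-containing medium on polytetrafluoroethylene (PTFE) coated with fibrinogen (FG). Blood CD68+ cells were taken straight from blood with no culture. All were selected with magnetic beads against CD68, a lysosomal membrane protein of monocytes and macrophages. The tissue was digested with collagenase and plasmin whereas the blood cells were separated on a density gradient, so in both comparisons of FBR cells with the others isolation and condition cannot be told apart. In vitro activated cells differed from blood cells by culture, serum, PTFE and FG together. No group was cultured without FG, so these parts cannot be told apart either. The labels call the arrays of a group biological replicates, the number of rats behind each array is not given in the sources used here, and n therefore counts arrays.

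Rab proteins are small GTPases of the Ras superfamily that act as molecular switches on membranes. Exchange factors load them with GTP, GTPase-activating proteins turn them off, and GTP-bound Rabs recruit effectors that move, tether and fuse vesicles. Different Rabs mark different compartments, and in macrophages they order the steps by which phagosomes mature into acidic, degradative organelles, by which receptors are recycled, and by which granules and cytokines are released.

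Expression is given as array signal, a linear intensity in arbitrary units scaled by the authors to the same trimmed mean on every array. As deposited, 195 of the 504 signals of the Rab genes (38.7%), in 36 genes, had lost their decimal point and were restored by dividing them by 1000, and 2 could not be read. Signals of different genes come from different probes and are not compared with each other. Fold changes are on the log2(signal + 16) scale with the standard error (SE) of the fit, which understates changes of dim genes, and a gene was called when its adjusted p from limma over all probe sets was under 0.05. Over all probe sets, arrays correlated at 0.931 to 0.976 within a group and at 0.796 to 0.899 between groups. Cd68 gave 20075, 24802 and 20469.5 on the FBR arrays, 28965, 23892 and 38244 on the in vitro activated arrays and 11741, 3524 and 8449.5 on the blood arrays and rose in both activated groups (1.62 ± 0.41, adjusted p = 0.0116 in FBR and 2.08 ± 0.41, adjusted p = 0.00436 in in vitro activated cells). Blood replicate 2 had the lowest Cd68 signal and correlated less with the other blood arrays (0.947 and 0.950) than they did with each other (0.969). Of 8 measured monocyte and macrophage markers, 6 were higher in FBR cells and 3 in in vitro activated cells than in blood cells. Between FBR and in vitro activated cells 1 was called, Cd163, which was higher in FBR cells (8.34 ± 0.65, adjusted p = 4.6e-05). Of 6 measured B cell markers, all 6 were lower in FBR and all 6 in in vitro activated cells than in blood cells. Their signals summed to between 44.8 and 158 on FBR arrays, 284 and 2001 on in vitro activated arrays, and 35102 and 50620 on blood arrays. T cell and NK cell markers were lower as well, 7 of 9 and 7 of 8 in FBR cells and 6 of 9 and 6 of 8 in in vitro activated cells, whereas 4 of 8 fibroblast markers were raised in FBR cells over blood. Of 6 platelet markers 3 were lower and 1 higher in FBR cells and 3 were lower in in vitro activated cells than in blood. Between FBR and in vitro activated cells, 3 of 5 neutrophil markers were higher in FBR cells, with sums of 2268 to 3013 on FBR arrays and 205 to 728 on in vitro activated arrays, and 3 of 6 B cell markers were lower. These lists move with the comparisons below. In bulk samples fewer cells of a type and less RNA per cell cannot be told apart, and the part of these cells in the results was not tested.

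Against blood, 14 of 56 Rab genes (25.0%) were called higher in FBR cells and 11 (19.6%) lower. Over all genes tested 14.7% were called higher and 19.2% lower, so the share of lower Rab genes was close to the background. This background holds genes of any signal, whereas 47 of the 56 Rab genes had a group mean of at least 100. The other 9 were not called in FBR over blood, and the part of signal level in these shares was not tested. In in vitro activated cells 15 (26.8%) were called higher and 8 (14.3%) lower than in blood cells, where 15.4% and 12.2% of all genes were called. Between FBR and in vitro activated cells 5 Rab genes (8.93%) were called higher and 5 (8.93%) lower in FBR cells, beside 8.88% and 16.7% of all genes. The median log2 fold change of the Rab genes was 0.26, 0.26 and 0.09 in the 3 comparisons, and that of all genes was -0.09, 0.13 and -0.23. The 2 comparisons against blood share the blood arrays, so their values are given side by side. With each array centred on its median, the median of all genes became 0.27, 0.15 and 0.11, and 77.8% instead of 56.0% of the called Rab genes were higher in FBR over blood, and 81.8% instead of 50.0% in FBR over in vitro activated cells. With quantile normalization these shares were 68.2% and 70.0%. The count of lower Rab genes in FBR against blood was 6 without blood replicate 3, 6 without FBR replicate 2 and 5 without FBR replicate 3, and without blood replicate 2 the counts were 13 higher and 9 lower. In in vitro activated cells the 8 lower calls became 5 without blood replicate 3. Between FBR and in vitro activated cells the 5 higher calls became 1 to 6 and the 5 lower calls 3 to 7 when 1 array was left out. There was 1 higher call without FBR replicate 2, 2 without FBR replicate 1 or 3 and 3 without in vitro activated replicate 2, and 3 lower calls without any 1 FBR array.

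**Figure D1:**
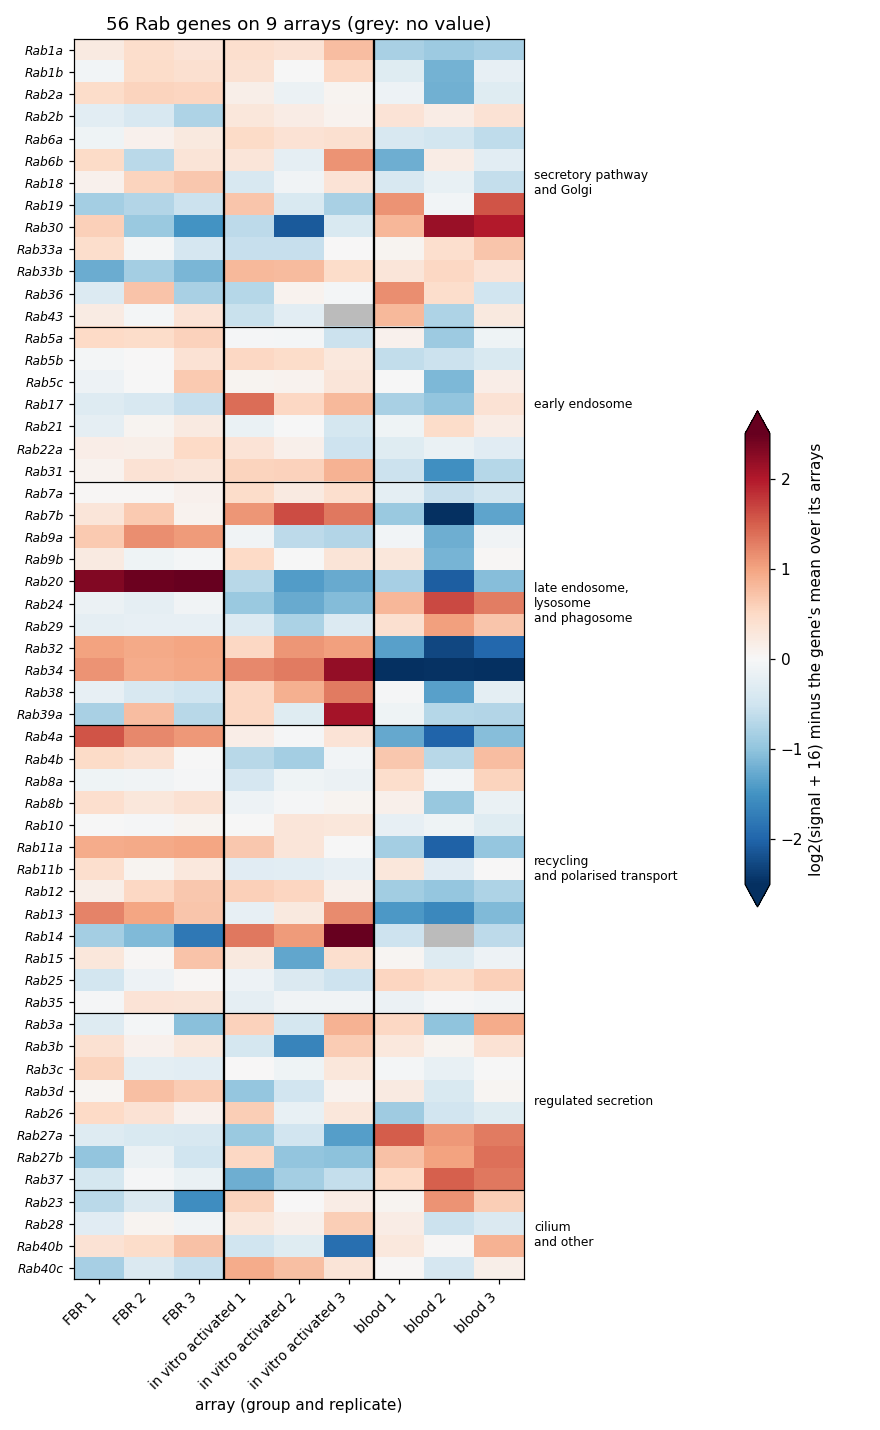
Log2(signal + 16) of the 56 Rab genes minus each gene's mean over its arrays, by array (columns: FBR, in vitro activated and blood, 3 arrays each) and grouped by role (rows); red is above and blue below the gene's mean, grey is a value that could not be read. Rab20 stands out on the 3 FBR arrays, Rab34 and Rab32 are low on the 3 blood arrays, and Rab27a, Rab24 and Rab30 are highest on blood arrays.

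Among the Rabs of late endosomes, lysosomes and phagosomes, 5 of 11 rose and 2 fell in FBR against blood cells, and the same numbers were called in in vitro activated cells, with medians of 0.48 and 0.79. These are 45.5% higher and 18.2% lower, beside 14.7% and 19.2% of all genes in FBR and 15.4% and 12.2% in in vitro activated cells. Here and in the groups below, roles were assigned with earlier results of these data known. Differences of these shares from those of all genes were not tested. Rab20, which acts in phagosome maturation in macrophages, was raised in FBR cells over both other groups. Its signal was 7983, 8775 and 9163 on the FBR arrays, 979, 598 and 659 on the in vitro activated arrays and 884, 371 and 757 on the blood arrays. The FBR arrays lay far above all others and the in vitro activated and blood arrays overlapped. The increase was 13.4-fold over blood (3.74 ± 0.34, adjusted p = 3.58e-05) and 11.6-fold over in vitro activated cells (3.54 ± 0.34, adjusted p = 0.000126), and the difference of in vitro activated cells from blood was 0.20 with a 95% confidence interval of -0.55 to 0.96.

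Rab34, Rab32 and Rab7b were raised in both activated groups on the probe sets used, and the other probe set of Rab34 was not called in either. Rab34, linked to phagosome maturation, macropinocytosis and lysosome positioning, gave signals of 319.7, 278 and 287 on the FBR arrays, 339, 364 and 689.9 on the in vitro activated arrays and 8.61, 11.8 and 9.3 on the blood arrays. All 6 arrays of activated cells were well above the blood arrays, where the signal was close to the bottom of the scale. The log2 fold change was 3.59 ± 0.29, adjusted p = 1.71e-05 in FBR cells and 4.14 ± 0.29, adjusted p = 2.02e-05 in in vitro activated cells. With so low a signal in blood the size depends on the pseudocount, and with pseudocounts of 1 and 64 it was 4.77 and 2.28 in FBR and 5.35 and 2.78 in in vitro activated cells. Rab32, which serves lysosome-related organelles, showed 6063, 5811 and 5971 on the FBR arrays, 4283, 6503 and 6121 on the in vitro activated arrays and 1156, 612 and 764 on the blood arrays. Its groups of activated cells overlapped each other and lay above blood, by 2.84 ± 0.29, adjusted p = 6.71e-05 in FBR and 2.74 ± 0.29, adjusted p = 0.000126 in in vitro activated cells. Rab7b, which has been tied to lysosomal routing of Toll-like receptors in mouse macrophages, read 1209, 1544 and 1038 on the FBR arrays, 2119.9, 3051 and 2473 on the in vitro activated arrays and 506, 123 and 382 on the blood arrays. The 3 groups did not overlap, with in vitro activated cells highest and blood cells lowest. It rose by 2.04 ± 0.44, adjusted p = 0.00527 in FBR and 3.05 ± 0.44, adjusted p = 0.000798 in in vitro activated cells. The difference of FBR from in vitro activated cells did not pass the threshold on the probe set used (-1.01 ± 0.44, adjusted p = 0.13). The other probe set of Rab7b was called lower in FBR cells there.

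The promoters of these 4 members, which rose over blood by 2.84 or more in at least 1 of the activated groups on the probe sets used, are shown so that their sequence can be read beside the signals. Each is the 250 bases before the gene start on the gene's strand in GRCr8, 5′ to 3′, as annotated by RefSeq. The motifs searched, on both strands, stand in capitals: CACGTG (an E-box bound by the MITF and TFEB family), ACGTG (the core of the hypoxia response element, which every CACGTG also contains), TGANTCA (bound by AP-1) and GAGGAAGT (bound by PU.1).
Rab20 (chr16:84721177-84721426, + strand): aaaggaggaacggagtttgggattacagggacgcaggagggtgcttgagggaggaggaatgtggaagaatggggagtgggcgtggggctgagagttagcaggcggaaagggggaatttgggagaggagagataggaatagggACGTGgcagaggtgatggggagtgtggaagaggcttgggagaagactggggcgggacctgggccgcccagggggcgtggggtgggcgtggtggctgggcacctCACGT
Rab32 (chr1:6781259-6781508, - strand): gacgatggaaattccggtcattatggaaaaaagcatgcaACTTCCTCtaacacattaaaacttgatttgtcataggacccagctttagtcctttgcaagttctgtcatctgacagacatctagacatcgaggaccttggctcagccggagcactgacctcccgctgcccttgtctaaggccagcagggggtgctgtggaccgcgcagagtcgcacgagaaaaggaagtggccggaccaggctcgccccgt
Rab34 (chr10:63581292-63581541, + strand): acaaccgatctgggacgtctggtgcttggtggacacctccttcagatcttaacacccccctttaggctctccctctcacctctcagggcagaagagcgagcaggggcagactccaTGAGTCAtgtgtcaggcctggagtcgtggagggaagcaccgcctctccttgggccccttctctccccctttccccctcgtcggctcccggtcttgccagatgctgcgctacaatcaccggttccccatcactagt
Rab7b (chr13:45673195-45673444, + strand): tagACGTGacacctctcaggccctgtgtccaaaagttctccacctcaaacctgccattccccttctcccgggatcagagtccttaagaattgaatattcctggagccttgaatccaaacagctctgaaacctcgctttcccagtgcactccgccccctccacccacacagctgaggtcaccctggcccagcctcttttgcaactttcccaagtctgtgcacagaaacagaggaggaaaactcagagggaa
ACGTG was found at 2 places in Rab20, the second ending at the base before the gene start, and at 1 in Rab7b. TGANTCA was found at 1 place in Rab34 and GAGGAAGT at 1 in Rab32, on the opposite strand, while CACGTG was in none of the 4. Of 33469 promoters of the same length, 5.59% held CACGTG, 16.6% ACGTG, 6.34% TGANTCA and 2.04% GAGGAAGT. Among the 45 Rab genes with a promoter in the RefSeq set, the same motifs were held by 3, 10, 4 and 1. A match describes letters in this window and is not evidence of binding.

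Other Rabs of the late pathway split between the conditions. Rab9a, which returns mannose 6-phosphate receptors from late endosomes to the Golgi, had signals of 3231, 4617 and 4259 on the FBR arrays, 1916, 1284 and 1216 on the in vitro activated arrays and 1939, 861 and 1916 on the blood arrays. Each FBR array was above every array of the other 2 groups, which overlapped. It rose by 1.43 ± 0.35, adjusted p = 0.0108 over blood and by 1.46 ± 0.35, adjusted p = 0.0145 over in vitro activated cells. Rab38, a close relative of Rab32, showed the opposite split with 528, 455 and 430.3 on the FBR arrays, 881, 1147 and 1532 on the in vitro activated arrays and 601, 229 and 513 on the blood arrays. In vitro activated arrays were the highest and the FBR and blood arrays overlapped. The in vitro activated increase over blood was 1.45 ± 0.36, adjusted p = 0.0151, and FBR over in vitro activated cells was -1.27 ± 0.36, adjusted p = 0.0297. Rab24, associated with autophagy, and Rab29, which recruits the kinase LRRK2 to lysosomes and Golgi, were highest in blood. Rab24 gave 2035, 1931 and 2127 on the FBR arrays, 1182, 938 and 1057 on the in vitro activated arrays and 4040.1, 7184 and 5509 on the blood arrays, and the 3 groups did not overlap. It fell in FBR cells (-1.41 ± 0.26, adjusted p = 0.00216) and in in vitro activated cells (-2.35 ± 0.26, adjusted p = 0.000177) against blood, and FBR cells lay above in vitro activated cells (0.93 ± 0.26, adjusted p = 0.0267). Rab29 fell in both (-0.92 ± 0.25, adjusted p = 0.0173 in FBR and -1.21 ± 0.25, adjusted p = 0.00587 in in vitro activated cells). Rab7a, the general Rab of late endosomes and lysosomes, rose in in vitro activated cells (0.79 ± 0.22, adjusted p = 0.0226) and was 0.48 in FBR cells (adjusted p = 0.124). Its other probe set was called in FBR cells only, with 1.18, adjusted p = 0.015 in FBR and 0.62, adjusted p = 0.181 in in vitro activated cells. The FBR value was called with median centring, a pseudocount of 64 and the mean of both probe sets (0.85, adjusted p = 0.016, 0.48, adjusted p = 0.0309 and 0.83, adjusted p = 0.0174). Rab9b and Rab39a had signals below 100 in the mean of every group and were not called in any comparison. The call between FBR and in vitro activated cells ended for Rab9a without FBR replicate 2 or 3 (adjusted p = 0.0587 and 0.0521). For Rab38 it ended without FBR replicate 1, 2 or 3 or in vitro activated replicate 2 or 3 (adjusted p = 0.0575, 0.086, 0.0919, 0.0659 and 0.0852). For Rab24 it ended without FBR replicate 1, 2 or 3 or in vitro activated replicate 2 or 3 (adjusted p = 0.0672, 0.0698, 0.0866, 0.0758 and 0.0518). The call of Rab29 in FBR against blood ended without FBR replicate 2 or 3 (adjusted p = 0.0536 and 0.0528), and that of Rab7a without in vitro activated replicate 1 or blood replicate 3 (adjusted p = 0.0643 and 0.0643). Rab7a lost its call in in vitro activated over blood with a fit without the remaining group (adjusted p = 0.0636). Rab24 lost its call in FBR over blood with restored signals left missing (adjusted p = 0.342), in in vitro activated over blood with restored signals left missing (adjusted p = 0.0932) and in FBR over in vitro activated with restored signals left missing (adjusted p = 0.255). Rab29 lost its call in FBR over blood with median centring (adjusted p = 0.117) and in in vitro activated over blood with restored signals left missing (adjusted p = 0.179). Rab38 lost its call in in vitro activated over blood with restored signals left missing (adjusted p = 0.228) and in FBR over in vitro activated with a pseudocount of 1, quantile normalization, median centring or restored signals left missing (adjusted p = 0.0551, 0.0542, 0.0942 and 0.304).

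**Figure D2:**
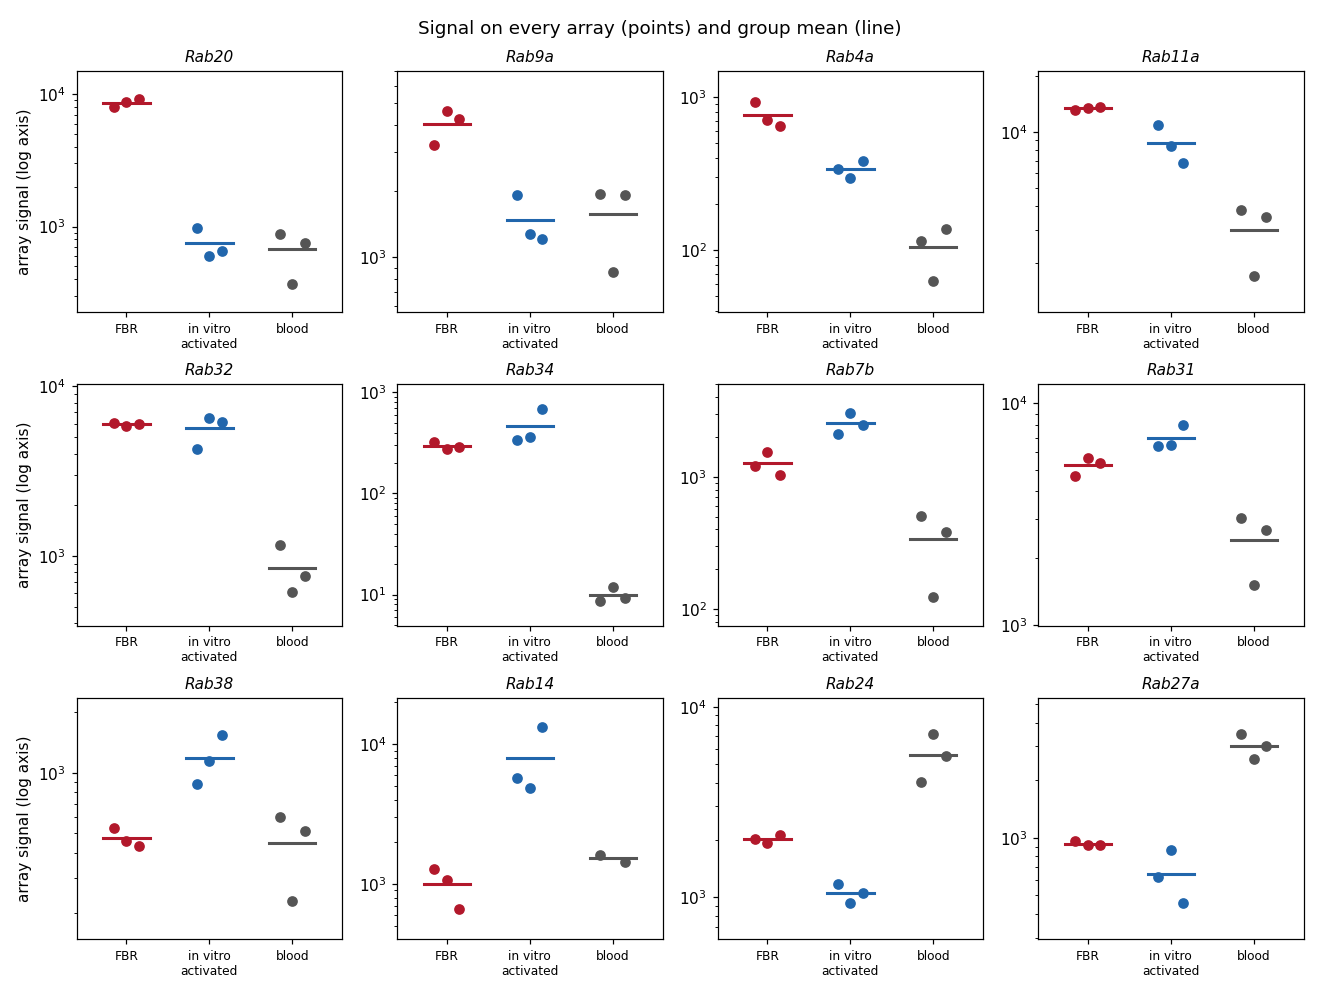
Array signal on a log axis for 12 Rab genes, 1 panel each, with points for the arrays of FBR, in vitro activated and blood cells (3 each, 2 blood arrays for Rab14) and lines at the group means. Rab20 sits between 7983 and 9163 on the FBR arrays and below 1000 on the other 6, while Rab27a is highest on the 3 blood arrays.

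Of 13 Rabs of recycling and polarised transport, 4 rose and 1 fell in FBR cells, and 5 rose and 1 fell in in vitro activated cells, against blood. These are 30.8% higher and 7.69% lower in FBR cells, beside 14.7% and 19.2% of all genes, and 38.5% and 7.69% in in vitro activated cells, beside 15.4% and 12.2%. The 5 that rose in in vitro activated cells include Rab14, whose probe sets were called in opposite directions, as described below. Rab4a, the Rab of fast recycling from early endosomes, separated all 3 groups with 929.8, 713 and 650.3 on the FBR arrays, 340.2, 295 and 383 on the in vitro activated arrays and 114, 62.9 and 136 on the blood arrays. FBR arrays were highest and blood arrays lowest without overlap. The log2 fold change was 2.73 ± 0.29, adjusted p = 9.6e-05 for FBR over blood and 1.61 ± 0.29, adjusted p = 0.00302 for in vitro activated over blood. FBR over in vitro activated cells was 1.13 ± 0.29, adjusted p = 0.0203. Rab11a, the Rab of the slow recycling endosome, gave 13029, 13329 and 13646 on the FBR arrays, 10888, 8445 and 6840.5 on the in vitro activated arrays and 3804, 1689 and 3507 on the blood arrays. The order of groups was the same as for Rab4a, and it rose by 2.23 ± 0.33, adjusted p = 0.000628 in FBR and 1.59 ± 0.33, adjusted p = 0.00593 in in vitro activated cells. FBR over in vitro activated was 0.64 ± 0.33, adjusted p = 0.199. Rab13, known from tight junctions and polarised transport in epithelia, read 1025, 853 and 701 on the FBR arrays, 368, 506 and 987 on the in vitro activated arrays and 148, 129 and 188 on the blood arrays. Both activated groups lay above blood and overlapped each other, with increases of 2.35 ± 0.35, adjusted p = 0.000661 in FBR and 1.79 ± 0.35, adjusted p = 0.00451 in in vitro activated cells. Rab12, which directs transferrin receptor to degradation, rose by 1.31 ± 0.25, adjusted p = 0.00245 and 1.28 ± 0.25, adjusted p = 0.00395 in FBR and in in vitro activated cells.

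Rab25, an epithelial relative of Rab11a, was the member of this group that fell (-0.71 ± 0.23, adjusted p = 0.0413 in FBR and -0.86 ± 0.23, adjusted p = 0.022 in in vitro activated cells). Rab8a, Rab8b and Rab10, which act in exocytosis, and Rab35, a further recycling Rab, were not called on the probe sets used. Their log2 fold changes over blood were -0.39, 0.69, 0.20 and 0.30 in FBR cells and -0.53, 0.30, 0.39 and -0.05 in in vitro activated cells. Of the 2 other probe sets of Rab8b, 1 was called higher in FBR over blood and 1 in FBR over in vitro activated cells. The FBR value of Rab8b over blood was called with median centring, without blood replicate 1 and with the mean of all probe sets. The confidence interval of Rab10 in FBR over blood was -0.27 to 0.68 and that of Rab35 -0.19 to 0.78. The call of Rab4a between FBR and in vitro activated cells ended without FBR replicate 1 or 2 or in vitro activated replicate 2 (adjusted p = 0.0719, 0.056 and 0.0614). Rab25 lost its call in FBR cells without FBR replicate 1, 2 or 3, in vitro activated replicate 2 or blood replicate 1, 2 or 3 (adjusted p = 0.14, 0.0906, 0.0563, 0.0535, 0.09, 0.056 and 0.108). In in vitro activated cells it lost it without in vitro activated replicate 2 or 3 or blood replicate 1 or 3 (adjusted p = 0.0521, 0.0574, 0.0554 and 0.0665). Rab4a lost its call in FBR over in vitro activated with restored signals left missing (adjusted p = 0.0772). Rab25 lost its call in FBR over blood with quantile normalization, median centring, the trend and robust options of eBayes or restored signals left missing (adjusted p = 0.484, 0.352, 0.0588 and 0.109) and in in vitro activated over blood with quantile normalization or restored signals left missing (adjusted p = 0.0512 and 0.0704).

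Rab14, which acts between the Golgi and endosomes and on phagosomes, was read differently by its 5 probe sets. The one used gave 1273, 1067 and 658 on the FBR arrays, 5743, 4843 and 13177 on the in vitro activated arrays and 1610.3 and 1449 on the blood arrays, with blood replicate 2 missing and dropped from the fit. In vitro activated arrays were the highest, by 2.22 ± 0.46, adjusted p = 0.007 over blood, and FBR arrays were below them (-2.87 ± 0.41, adjusted p = 0.00145). FBR over blood was -0.66 ± 0.46, adjusted p = 0.332. Another probe set was higher than blood in both groups (0.96, adjusted p = 0.0119 in FBR and 1.03, adjusted p = 0.0113 in in vitro activated cells), and yet another was lower in both (-1.10, adjusted p = 0.00347 and -1.07, adjusted p = 0.00552). Rab14 is therefore uncertain as a gene, and it was the only member whose probe sets were called in opposite directions, in both comparisons against blood. In FBR over in vitro activated cells 1 of its 4 other probe sets was lower too and the rest were not called. Rab15 was not called on the probe set used, but another was higher in in vitro activated cells than in blood (3.18, adjusted p = 0.000169) and lower in FBR cells (-2.53, adjusted p = 0.000874 over in vitro activated cells).

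**Figure D3:**
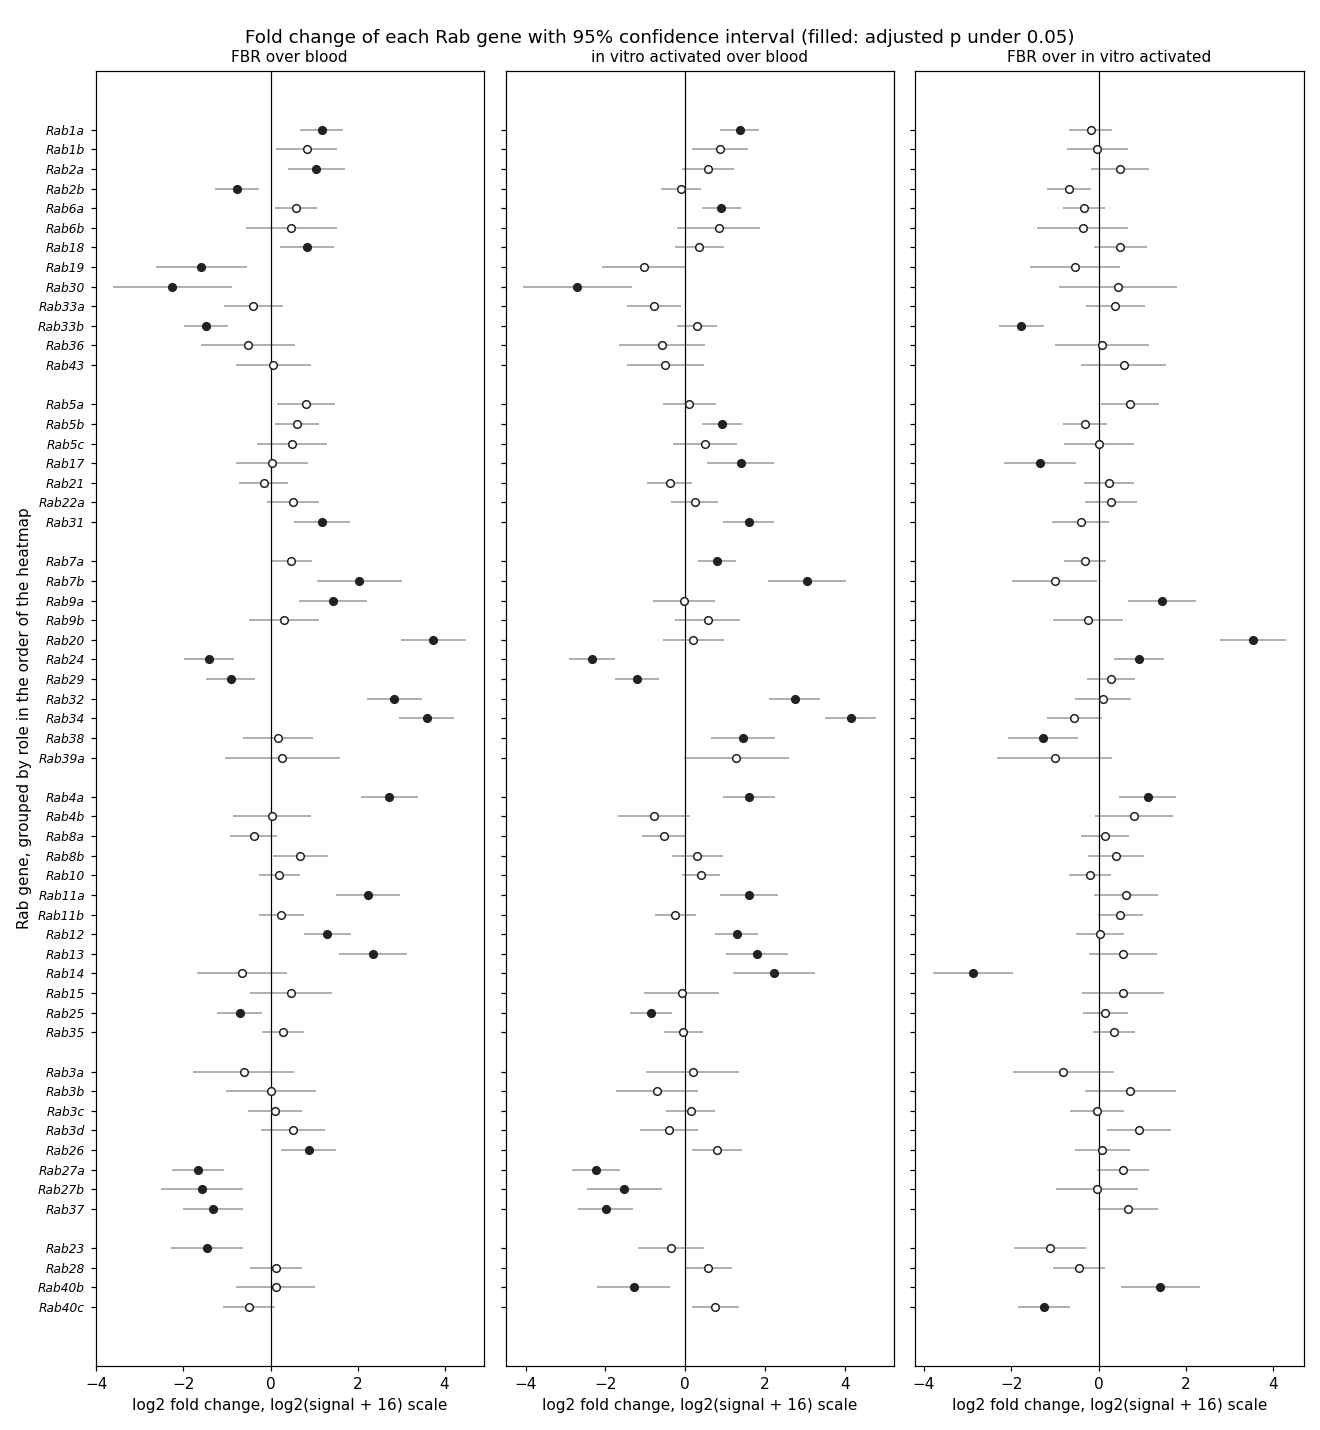
Log2 fold change of each Rab gene with its 95% confidence interval in the 3 comparisons, grouped by role as in the heatmap; filled points had an adjusted p under 0.05 and open points did not. Filled points lie on both sides of 0 in every comparison, and Rab20 stands at 3.74 in FBR over blood and 3.54 in FBR over in vitro activated cells.

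Of 7 early endosomal Rabs, 1 rose in FBR cells and 3 in in vitro activated cells against blood, and the others were not called. These are 14.3% and 42.9%, beside 14.7% and 15.4% of all genes. Rab31, which carries cargo between the Golgi and endosomes, gave 4683, 5656 and 5393 on the FBR arrays, 6439.7, 6509 and 8017 on the in vitro activated arrays and 3024, 1509 and 2679 on the blood arrays. Both activated groups lay above blood, by 1.18 ± 0.29, adjusted p = 0.0108 in FBR and 1.59 ± 0.29, adjusted p = 0.00307 in in vitro activated cells. Rab5a, Rab5b and Rab5c, the isoforms that drive fusion of early endosomes, were 0.81, 0.61 and 0.50 in FBR over blood, none past the threshold (adjusted p = 0.0657, 0.0655 and 0.35). In in vitro activated cells Rab5b rose (0.93 ± 0.23, adjusted p = 0.0133) on the probe set used, none of its 4 others was called, and the mean of all 5 gave 0.31, adjusted p = 0.413, whereas Rab5a was 0.10 and Rab5c 0.48. Rab5a and Rab5b were called higher in FBR cells when the pseudocount was 64 or dim probe sets were left out. Both were also called there with median centring, the trend and robust options of eBayes or array weights. Rab5a was called without blood replicate 1 as well, and Rab5b with quantile normalization. Rab21, which binds integrins, and Rab22a, which acts in endosomal recycling, were -0.15 and 0.52 in FBR and -0.39 and 0.23 in in vitro activated cells, and neither was called. Rab17, an epithelial Rab, had dim signals of 27.3, 25.2 and 20.5 on the FBR arrays, 127, 61.4 and 79.1 on the in vitro activated arrays and 15.1, 11.4 and 53.6 on the blood arrays. In vitro activated arrays were above those of both other groups (1.38 ± 0.37, adjusted p = 0.0213 over blood), FBR cells lay below them (-1.34 ± 0.37, adjusted p = 0.0272), and its other 2 probe sets were not called. Rab17 lost the call over blood without in vitro activated replicate 1 or blood replicate 1 or 2 (adjusted p = 0.0746, 0.0717 and 0.0754). It lost that of FBR over in vitro activated cells without FBR replicate 1, 2 or 3 or in vitro activated replicate 1 (adjusted p = 0.0595, 0.0737, 0.0877 and 0.0876). Rab31 lost its call in FBR over blood with the mean of all probe sets (adjusted p = 0.251) and in in vitro activated over blood with the mean of all probe sets (adjusted p = 0.117). Rab17 lost its call in in vitro activated over blood with a fit without the remaining group, array weights or the mean of all probe sets (adjusted p = 0.0553, 0.0732 and 0.282) and in FBR over in vitro activated with a pseudocount of 1, quantile normalization, median centring or the mean of all probe sets (adjusted p = 0.0557, 0.0698, 0.0806 and 0.282).

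Rabs of the secretory pathway and Golgi moved both ways. In FBR against blood cells 3 of 13 rose and 4 fell, and in in vitro activated cells 2 rose and 1 fell. These are 23.1% higher and 30.8% lower in FBR cells, beside 14.7% and 19.2% of all genes, and 15.4% and 7.69% in in vitro activated cells, beside 15.4% and 12.2%. Rab1a, which drives transport from the endoplasmic reticulum to the Golgi, gave 16353, 19159.8 and 17851 on the FBR arrays, 18780.2, 17990.5 and 23964 on the in vitro activated arrays and 8005, 7527 and 7940.0 on the blood arrays. The activated arrays were all above the blood arrays, with increases of 1.18 ± 0.22, adjusted p = 0.00245 in FBR and 1.36 ± 0.22, adjusted p = 0.0016 in in vitro activated cells. Its near-identical relative Rab1b was 0.83 and 0.86, not called, and 3 probe sets shared between Rab1a and Rab1b were not used. Both values of Rab1b were called with a pseudocount of 64, dim probe sets left out, quantile normalization or the trend and robust options of eBayes. The FBR value was also called with median centring. Rab2a, of the early secretory pathway, rose in FBR cells (1.06 ± 0.30, adjusted p = 0.02), whereas its paralogue Rab2b fell there (-0.78 ± 0.23, adjusted p = 0.0251). Rab18, found on the endoplasmic reticulum and lipid droplets, rose in FBR cells (0.84 ± 0.28, adjusted p = 0.0408), and Rab6a, which acts in transport within and from the Golgi, rose in in vitro activated cells (0.90 ± 0.22, adjusted p = 0.0123). The other probe set of Rab6a was -0.53, adjusted p = 0.195 there, and the mean of both was 0.19, adjusted p = 0.548. In FBR over blood Rab6a was 0.58, adjusted p = 0.0688. That value was called with a pseudocount of 64, dim probe sets left out, median centring, the trend and robust options of eBayes or array weights.

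Rab33b, a Golgi Rab that binds the autophagy protein Atg16l1, was low in FBR cells. Its signal was 204, 272 and 221 on the FBR arrays, 896, 893 and 702 on the in vitro activated arrays and 631, 736 and 651 on the blood arrays. FBR arrays lay below both other groups, which overlapped. The decrease was -1.48 ± 0.23, adjusted p = 0.000827 against blood and -1.77 ± 0.23, adjusted p = 0.000644 against in vitro activated cells. The Golgi Rabs Rab30 and Rab19 fell to dim signals. Rab30 gave 133, 35.9 and 19.1 on the FBR arrays, 46.2, 6.8 and 59.3 on the in vitro activated arrays and 158, 419.6 and 373 on the blood arrays, with blood arrays above all others and a wide spread. The differences were -2.25 ± 0.61, adjusted p = 0.0173 in FBR and -2.70 ± 0.61, adjusted p = 0.00927 in in vitro activated cells. Rab19 gave 15.7, 18.4 and 23.6 on the FBR arrays, 76.4, 27.8 and 16.8 on the in vitro activated arrays and 109.6, 38.4 and 155 on the blood arrays, and FBR arrays were below blood arrays (-1.59 ± 0.47, adjusted p = 0.0251) while in vitro activated arrays overlapped them (-1.05 ± 0.47, adjusted p = 0.134). Rab33a, Rab36, Rab43 and Rab6b were not called in any comparison, and the fit of Rab43 lacked in vitro activated replicate 3. In FBR over blood the calls ended for Rab2a without FBR replicate 2 or 3 (adjusted p = 0.0635 and 0.059), and for Rab2b without FBR replicate 2 or 3 or blood replicate 1 or 3 (adjusted p = 0.0608, 0.109, 0.0658 and 0.0736). That of Rab18 ended without FBR replicate 2 or 3, in vitro activated replicate 2 or blood replicate 1 or 3 (adjusted p = 0.123, 0.138, 0.054, 0.0872 and 0.126). Rab19 lost it without FBR replicate 1, 2 or 3 or blood replicate 1 or 3 (adjusted p = 0.0748, 0.069, 0.0529, 0.076 and 0.0946). Rab30 lost it without FBR replicate 2 or 3 or blood replicate 2 or 3 (adjusted p = 0.0616, 0.0711, 0.0712 and 0.0577). Rab2a lost its call in FBR over blood with quantile normalization or the mean of all probe sets (adjusted p = 0.078 and 0.235). Rab2b lost its call in FBR over blood with quantile normalization, median centring or restored signals left missing (adjusted p = 0.0947, 0.242 and 0.224). Rab18 lost its call in FBR over blood with a pseudocount of 1 (adjusted p = 0.0639). Rab19 lost its call in FBR over blood with median centring (adjusted p = 0.0753). Rab30 lost its call in FBR over blood with a pseudocount of 1 (adjusted p = 0.0662).

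Of 8 Rabs of regulated secretion, 3 fell and 1 rose in FBR cells, 3 fell in in vitro activated cells, and the others were not called. The share that fell was 37.5% in both, beside 19.2% of all genes in FBR and 12.2% in in vitro activated cells, and 12.5% rose in FBR cells, beside 14.7%. Rab27a, which docks secretory and lytic granules at the plasma membrane in cytotoxic lymphocytes and other blood cells, gave 959, 919 and 916 on the FBR arrays, 624, 862 and 458 on the in vitro activated arrays and 3478, 2590.2 and 3013 on the blood arrays. Blood arrays were above all 6 others. The log2 fold change was -1.67 ± 0.27, adjusted p = 0.00102 in FBR and -2.23 ± 0.27, adjusted p = 0.000289 in in vitro activated cells. Its other 2 probe sets fell too, at -1.33 and -2.29 in FBR and -1.77 and -2.15 in in vitro activated cells. Rab37, of mast cell exocytosis, read 23.1, 35.5 and 31 on the FBR arrays, 6.63, 13.3 and 19 on the in vitro activated arrays and 58.6, 133 and 115 on the blood arrays. Rab27b, a close relative of Rab27a, read 19.6, 47.5 and 34.2 on the FBR arrays, 84.9, 19.5 and 18.6 on the in vitro activated arrays and 101, 125 and 167 on the blood arrays. Both were higher on every blood array than on the 6 others. Rab37 was at -1.32 ± 0.31, adjusted p = 0.00846 in FBR and -1.99 ± 0.31, adjusted p = 0.00122 in in vitro activated cells, and Rab27b at -1.58 ± 0.42, adjusted p = 0.0162 and -1.53 ± 0.42, adjusted p = 0.0236. The NK cell markers summed to at most 229 on FBR arrays, at most 231 on in vitro activated arrays and at least 1881 on blood arrays, and their part in the decrease of Rab27a was not tested.

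Rab26, of secretory granules, was the member of this group that rose in FBR cells (0.88 ± 0.28, adjusted p = 0.0373), with 0.79 ± 0.28, adjusted p = 0.0655 in in vitro activated cells. Rab3d, the Rab3 isoform of non-neuronal granules, was 0.52 ± 0.33, adjusted p = 0.279 in FBR and -0.41 ± 0.33, adjusted p = 0.408 in in vitro activated cells over blood and 0.93 ± 0.33, adjusted p = 0.0673 in FBR over in vitro activated cells. The last value passed the threshold under quantile normalization (1.09, adjusted p = 0.0436) and with dim probe sets left out (0.93, adjusted p = 0.0357). Rab3a, Rab3b and Rab3c, the isoforms of neurons and endocrine cells, had mean signals under 100 in every group and were not called. The call of Rab26 ended without FBR replicate 1, 2 or 3 or blood replicate 1 or 2 (adjusted p = 0.112, 0.101, 0.0582, 0.124 and 0.0635). That of Rab27b ended in FBR cells without FBR replicate 1 or blood replicate 3 (adjusted p = 0.0649 and 0.06). It ended in in vitro activated cells without in vitro activated replicate 2 or 3 or blood replicate 2 or 3 (adjusted p = 0.0785, 0.0748, 0.0599 and 0.0797). Rab27b lost its call in FBR over blood with quantile normalization, median centring or the mean of all probe sets (adjusted p = 0.0541, 0.0555 and 0.0672) and in in vitro activated over blood with the mean of all probe sets (adjusted p = 0.0652).

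The 4 remaining members act at the cilium or in protein turnover. Rab23, a negative regulator of Hedgehog signalling, had dim signals of 53.1, 70.1 and 21.3 on the FBR arrays, 147, 95.3 and 109 on the in vitro activated arrays and 99.6, 224 and 152 on the blood arrays. FBR arrays were below blood arrays (-1.46 ± 0.37, adjusted p = 0.0125), a call that ended without FBR replicate 3 (adjusted p = 0.0504). Rab40b and Rab40c, which form ubiquitin ligases through a SOCS box, went opposite ways between the activated groups. Rab40c was 269, 379 and 322 on the FBR arrays against 943, 833 and 619 on the in vitro activated arrays, without overlap, and was lower in FBR cells (-1.25 ± 0.27, adjusted p = 0.00815). Rab40b was dim, with 78.1, 85.1 and 106 on the FBR arrays, 36, 43.4 and 3.84 on the in vitro activated arrays and 72.8, 59.4 and 119 on the blood arrays. FBR over in vitro activated cells was 1.41 ± 0.41, adjusted p = 0.0321 and in vitro activated over blood -1.29 ± 0.41, adjusted p = 0.042. The first call ended without FBR replicate 1, 2 or 3 or in vitro activated replicate 3 (adjusted p = 0.0641, 0.0811, 0.103 and 0.0621). The second ended without FBR replicate 1, 2 or 3, in vitro activated replicate 3 or blood replicate 1, 2 or 3 (adjusted p = 0.0595, 0.0618, 0.0594, 0.0922, 0.0772, 0.0552 and 0.138). Rab28 was not called. Rab23 lost its call in FBR over blood with quantile normalization or restored signals left missing (adjusted p = 0.0611 and 0.0795). Rab40b lost its call in in vitro activated over blood with a pseudocount of 1, median centring, a fit without the remaining group, the mean of all probe sets or restored signals left missing (adjusted p = 0.103, 0.0601, 0.0888, 0.16 and 0.0619) and in FBR over in vitro activated with a pseudocount of 1, a fit without the remaining group or the mean of all probe sets (adjusted p = 0.0859, 0.0511 and 0.621). Rab40c lost its call in FBR over in vitro activated with median centring (adjusted p = 0.0546).

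Several probe sets per gene gave a check on the signal used. Of 27 members with several, 17 had the same call on all in FBR over blood, 15 in in vitro activated over blood and 16 in FBR over in vitro activated cells. Of the 12 that were called in FBR over blood, 7 had another probe set called in the same direction, among them Rab11a, Rab12, Rab7b and Rab27a. In in vitro activated over blood 5 of 14 had one, and in FBR over in vitro activated cells 2 of 4. For Rab20 one other probe set rose over blood (1.58, adjusted p = 0.00614) and over in vitro activated cells (1.55, adjusted p = 0.0106), and the other was -0.18, adjusted p = 0.643 over blood. For Rab34 the other probe set was 0.34, adjusted p = 0.462 in FBR and -0.01, adjusted p = 0.986 in in vitro activated cells, and for Rab31 the other was -0.24, adjusted p = 0.672 and -0.26, adjusted p = 0.645. Calls on the probe set used that no other probe set of the gene shared were those of Rab2a, Rab23, Rab27b, Rab31 and Rab34 in FBR over blood. In in vitro activated over blood they were those of Rab5b, Rab6a, Rab7a, Rab17, Rab27b, Rab30, Rab31, Rab34 and Rab40b, and in FBR over in vitro activated cells those of Rab17 and Rab40b. Rab10 was called higher by its other probe set, by 1.93, adjusted p = 0.00181 in FBR and 1.19, adjusted p = 0.0286 in in vitro activated cells. In FBR over in vitro activated cells several genes were called only by a probe set that was not used. Such calls were lower for Rab2a, Rab2b, Rab7b, Rab15 and Rab30 and higher for Rab5a and Rab8b.

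**Figure D4:**
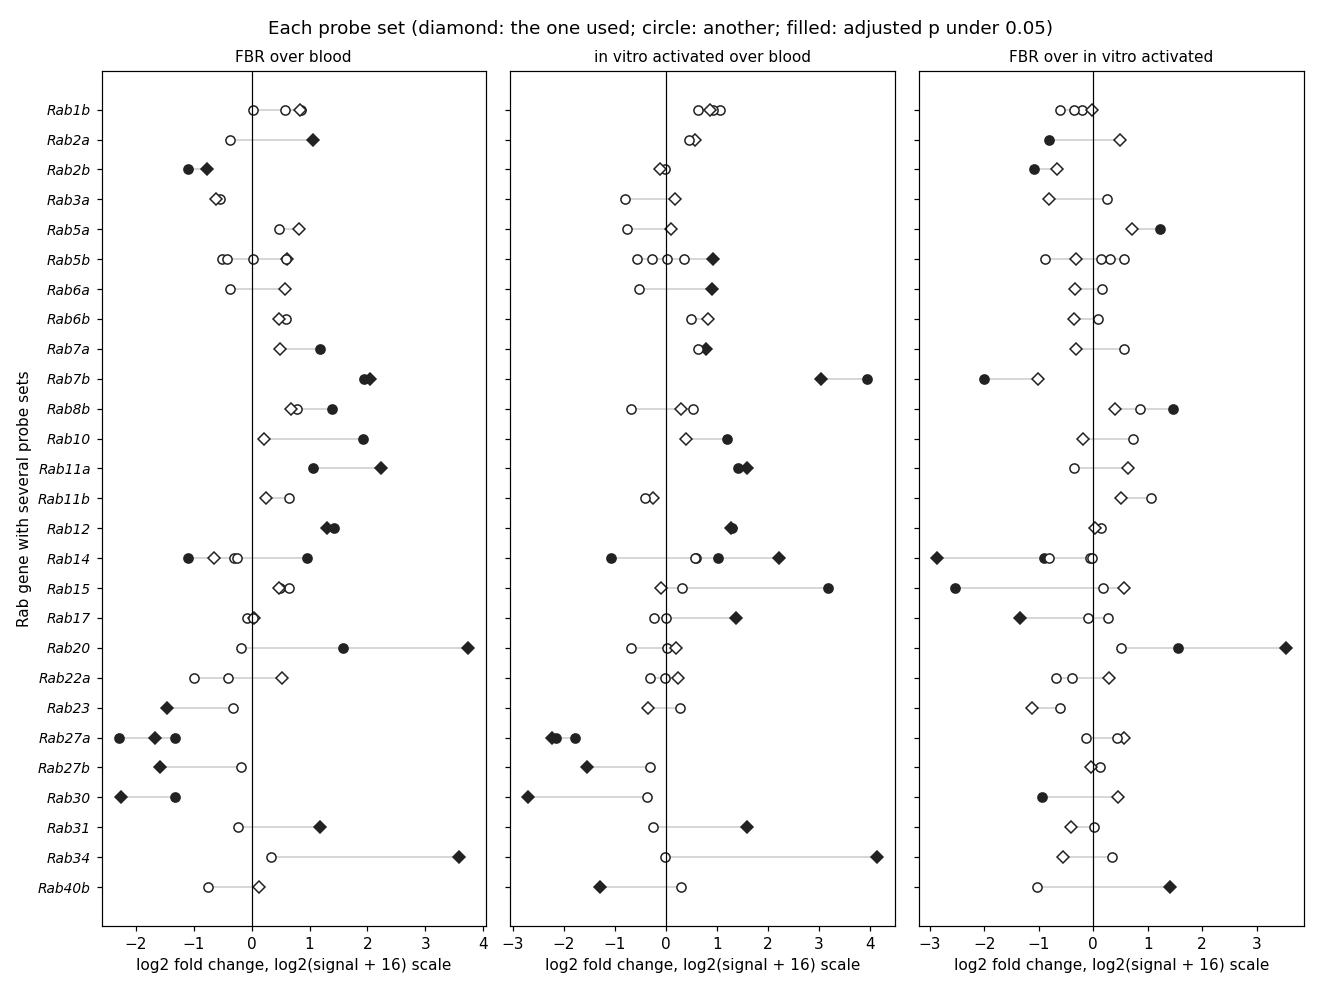
Log2 fold change of every probe set of the 27 Rab genes with several, in the 3 comparisons; diamonds are the probe sets used, circles the others, and filled symbols had an adjusted p under 0.05. The symbols of Rab27a, Rab12 and Rab11a lie close together on 1 side of 0 in both comparisons against blood, and those of Rab14 lie on both sides.

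The partners of Rab proteins were read from a list of 175 genes, of which 153 were on the array. Against blood 25 rose and 45 fell in FBR cells, and 28 rose and 26 fell in in vitro activated cells. These are 16.3% and 29.4% in FBR cells, beside 14.7% and 19.2% of all genes, and 18.3% and 17.0% in in vitro activated cells, beside 15.4% and 12.2%. Between the activated groups 14 (9.15%) were higher and 31 (20.3%) lower in FBR cells, beside 8.88% and 16.7% of all genes. The median log2 fold changes of -0.14, 0.12 and -0.30 were near those of all genes. In FBR against blood cells 12 of 32 GTPase-activating proteins (37.5%) fell and 5 rose, 11 of 43 exchange factors (25.6%) fell and 6 rose, and 20 of 70 effectors (28.6%) fell and 12 rose. Of 8 genes for GDP dissociation, prenylation and escort, 2 rose and 2 fell.

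Appl2, an effector of Rab5 and Rab31 on early endosomes, gave 4156, 4465 and 4030.2 on the FBR arrays, 483, 263 and 253 on the in vitro activated arrays and 161, 125 and 95.2 on the blood arrays. FBR arrays were far above the others, with 4.91 ± 0.30, adjusted p = 4.46e-06 over blood and 3.66 ± 0.30, adjusted p = 5.31e-05 over in vitro activated cells. Optn, an effector of Rab8, rose in both groups (3.09 ± 0.38, adjusted p = 0.000206 in FBR and 3.39 ± 0.38, adjusted p = 0.00018 in in vitro activated cells), as did Rab11fip5, an effector of Rab11 (2.93 ± 0.28 and 1.99 ± 0.28), and Myo7a, a myosin carried on Rab27a organelles through its linker (2.32 ± 0.38 and 2.83 ± 0.38). Rin2, an exchange factor of Rab5, Rilpl1, an effector of Rab8 and Rab10, and Micall2, an effector of Rab13, were highest in in vitro activated cells. Rin2 gave 3145, 2828 and 2918 on the FBR arrays, 13318, 15758 and 24834 on the in vitro activated arrays and 1891, 930.1 and 1550.1 on the blood arrays. In vitro activated over blood was 3.62 ± 0.32, adjusted p = 6.05e-05 for Rin2, 4.13 ± 0.34, adjusted p = 4.23e-05 for Rilpl1 and 3.81 ± 0.27, adjusted p = 2.1e-05 for Micall2, and FBR over in vitro activated cells was -2.54, -2.12 and -1.92. Kif20a, a mitotic kinesin that binds Rab6, was lower in FBR cells as well (FBR over in vitro activated -2.75 ± 0.31, adjusted p = 0.000496).

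Tbc1d10c, a GTPase-activating protein of lymphocytes, gave 50.9, 69.3 and 39.9 on the FBR arrays, 57.2, 42.5 and 85.1 on the in vitro activated arrays and 2855, 5330.1 and 3657 on the blood arrays. Blood arrays were far above the rest, with -5.81 ± 0.32, adjusted p = 2.57e-06 in FBR and -5.66 ± 0.32, adjusted p = 1.09e-05 in in vitro activated cells. The B cell and T cell markers given above fell in the same comparisons, and their part in this value was not tested. Usp6nl, a GTPase-activating protein of Rab5, fell in FBR cells (-3.83 ± 0.29, adjusted p = 1.18e-05) and in in vitro activated cells (-2.26 ± 0.29, adjusted p = 0.000371). Rab3ip, an exchange factor of Rab8, fell in FBR (-3.90 ± 0.56, adjusted p = 0.000558) and in in vitro activated cells (-2.01 ± 0.56, adjusted p = 0.0258), and Mical3, a Rab8 effector, fell in FBR cells (-2.94 ± 0.73, adjusted p = 0.0109). Rab11fip4, Dennd3 and Dennd6a fell in both, at -2.76 ± 0.34, -1.51 ± 0.25 and -2.22 ± 0.27 in FBR and -2.90 ± 0.34, -2.63 ± 0.25 and -2.48 ± 0.27 in in vitro activated cells. Among the DENN domain exchange factors the activated groups differed in both directions. Dennd1a (3.29 ± 0.34, adjusted p = 0.000196) and Dennd2a (2.43 ± 0.41, adjusted p = 0.00431), and Sbf2, which also has a DENN domain (2.14 ± 0.31, adjusted p = 0.00122), were higher in FBR cells, and Dennd1b (-2.81 ± 0.28, adjusted p = 0.000156) was lower, as was Tbc1d12, a GTPase-activating protein family member (-2.40 ± 0.39, adjusted p = 0.00215). The call of Rab3ip in in vitro activated cells ended without in vitro activated replicate 1 or 3 or blood replicate 2 (adjusted p = 0.0525, 0.0825 and 0.0648). Rab3ip lost its call in in vitro activated over blood with a pseudocount of 1, a fit without the remaining group, array weights or restored signals left missing (adjusted p = 0.0527, 0.0617, 0.0614 and 0.0785).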

How the data were processed

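CD68+ cells of the rat were measured on Affymetrix Rat Genome 230 2.0 arrays after 2 rounds of amplification, with 3 FBR, 3 in vitro activated and 3 blood arrays. The deposited values are MAS5 signals, a linear intensity that the authors scaled to a trimmed mean of about 500 (499 to 502 over the arrays). The authors also deposited pairwise comparisons (fold changes and p-values from RMA), which were not used. Many deposited cells had lost their decimal point or stood as dates. Of 279891 cells, 83.4% were kept, 15.5% were divided by 1000, 0.0657% were read back from dates, and 1% had several readings and were left missing.

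Signals were analysed as log2(signal + 16) with limma 3.58.1 (lmFit and eBayes) in R 4.3.3, with 1 mean per group and all 9 arrays sharing the spread, and Benjamini-Hochberg adjustment of the p-values across 31099 probe sets. Symbols came from the platform annotation. Only probe sets with 1 symbol were named. Arrays give no read depth, and their number limits the precision. Intervals are 95%. Members, roles and partner lists were chosen with earlier results of these data known. Values on every array are given for the members with the largest called changes and no overlap of arrays in each comparison and for well-known phagocyte Rabs, and partners for the largest called changes. Promoters were searched with Python 3.11.15, and figures drawn with matplotlib 3.10.9. Replicate numbers of the labels were not used as pairs. Alternatives to the scaling, the pseudocount, the filter, the fit, the probe set rule, the reading of damaged cells and the threshold, and leaving out each array, are given in the closing section. The fit was tested on simulated data.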

Additional observations from a re-analysis of the deposited data

Results flagged for a closer look

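The effect over blood differed between FBR and in vitro activated cells for 10 of 56 Rab genes, by the limma test of FBR over in vitro activated cells. Of the Rab genes 8.93% were higher and 8.93% lower in FBR cells, beside 8.88% and 16.7% of all genes. Of the 10 calls, 4 held whichever array was left out, and 3 held under all alternatives. The log2 difference was positive, so that FBR cells were the higher, for Rab20 (3.54), Rab9a (1.46), Rab40b (1.41), Rab4a (1.13) and Rab24 (0.93). It was negative for Rab14 (-2.87), Rab33b (-1.77), Rab17 (-1.34), Rab38 (-1.27) and Rab40c (-1.25). The signals of Rab17 and Rab40b were under 100 in the mean of every group. For Rab14 1 of the 4 other probe sets was lower too, and its probe sets were called in opposite directions only in the comparisons against blood.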

How the results depend on the processing

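With cells restored from lost decimals or dates left missing, 33, 36 and 37 of the 56 Rab genes could be tested in FBR over blood, in vitro activated over blood and FBR over in vitro activated cells. The calls were then 5 higher and 5 lower, 5 higher and 3 lower, and 1 higher and 4 lower, in part because fewer genes and arrays remained. Reading the ambiguous cells as the value nearest the probe set's median, an alternative chosen after seeing the data, changed none of the 6 counts. At an adjusted p under 0.01 there were 9 higher and 4 lower Rab genes in FBR over blood. There were 10 and 5 in in vitro activated over blood, and 1 and 3 in FBR over in vitro activated cells. Higher and lower counts follow for FBR over blood, in vitro activated over blood and FBR over in vitro activated cells, in this order. Quantile normalization gave 15 and 7, 18 and 7, and 7 and 3. Median centring gave 21 and 6, 15 and 7, and 9 and 2. A pseudocount of 1 gave 13 and 10, 15 and 7, and 4 and 3. One of 64 gave 19 and 11, 17 and 8, and 6 and 6. With dim probe sets left out, 47 genes remained and gave 18 and 11, 17 and 8, and 5 and 6. The fit of only the 6 arrays compared gave 14 and 11, 13 and 7, and 4 and 6. The trend and robust options of eBayes gave 18 and 10, 17 and 8, and 6 and 7. Array weights gave 17 and 11, 14 and 10, and 6 and 6. Leaving out 1 array gave 11 to 14 higher and 5 to 11 lower in FBR over blood, 13 to 16 higher and 5 to 9 lower in in vitro activated over blood, and 1 to 6 higher and 3 to 7 lower in FBR over in vitro activated cells. The mean of all probe sets gave 15 higher and 10 lower, 15 and 6, and 6 and 7 in the 3 comparisons. It turned Rab15 in in vitro activated over blood to 1.14 and Sbf2 to 0.78, both called there and not in the fit used. Of the 25, 23 and 10 calls, 12, 12 and 3 held under all alternatives that gave a value, the stricter threshold included. Apart from these constructions the cause of a change was not tested.

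Arrays of equal replicate number were no more alike than others: their deviations from the group means correlated at -0.06 to 0.07, and those of different numbers at -0.05 to 0.08. Such values, from 3 arrays a group, cannot exclude that equal numbers share a rat or a batch. With the replicate number as a block the counts were 13 higher and 10 lower in FBR over blood, 15 and 7 in in vitro activated over blood, and 3 higher and 5 lower in FBR over in vitro activated cells.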
